A study of Mus musculus with 18 samples.

Results

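The genes of MHC class II antigen presentation were examined in ChIP-seq peak lists of mouse splenic B cells. The set held 10 genes, chosen by symbol in GENCODE release M21, out of 21938 protein-coding genes: H2-Aa, H2-Ab1, H2-Eb1, H2-DMa, H2-DMb1, H2-DMb2, H2-Oa, H2-Ob, Cd74 and Ciita. The B cells came from WT mice and from mice deficient in Mir155 (KO), both on a C57BL/6 background, and the methods give an age range for the mice of the whole study but no age for each library. All cultures were grown for 2 days at 1% oxygen with anti-CD40, an F(ab')2 anti-IgM fragment and IL-4, and no untreated or normoxic group was analysed here. The B cells were enriched by negative selection, so other spleen cells may remain. Chromatin was fixed with EGS and formaldehyde and precipitated for KDM2A, a histone demethylase, or for its substrate H3K36me2, the dimethyl mark on lysine 36 of histone H3. Each genotype had 3 libraries per antibody, in which replicate 1 was male and the others female, and 12 peak lists were used. By sex, replicate 1 came from another animal than replicates 2 and 3. The labels did not state whether replicates 2 and 3 were separate animals, so p-values measure the spread between these libraries, which may be technical in part.

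MHC class II molecules are heterodimers that display peptides from endocytosed proteins to CD4 T cells, and B cells use them to obtain T cell help. In the C57BL/6 haplotype H2-Aa and H2-Ab1 encode the alpha and beta chains of the surface molecule I-A, while H2-Eb1 encodes a beta chain whose alpha partner is lost. Cd74 encodes the invariant chain, which fills the groove until H2-DM (H2-DMa with H2-DMb1 or H2-DMb2) exchanges its remnant for peptide, and H2-O (H2-Oa with H2-Ob) restrains H2-DM. Ciita encodes the coactivator that switches these genes on together, through RFX at the X box and NF-Y at the Y box of their promoters. KDM2A carries a CXXC zinc finger that binds unmethylated CpG, and H3K36me2 is mostly spread over gene bodies and intergenic DNA.

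The promoter sequences are shown because KDM2A peaks lay over them and because KDM2A is known as a CpG-binding protein. RefSeq (GRCm38.p6) gave 8 promoters of 300 bases for 7 of the 10 genes, with 2 for H2-DMa and none for H2-Ab1, Cd74 and Ciita. The letters GATTGG (core of the Y box) and AGNAAC (in the X box) were searched on both strands, and they do not overlap each other. Capitals mark these letters or their complement. Each line runs 5′ to 3′ on the strand of the gene and lies in the 250 bases before its RefSeq start site, without bases of annotated coding-gene exons apart from the last base of the H2-Oa line. Positions are counted back from −1, the base before the start site.
H2-Oa, chr17:34092129-34092340, plus strand: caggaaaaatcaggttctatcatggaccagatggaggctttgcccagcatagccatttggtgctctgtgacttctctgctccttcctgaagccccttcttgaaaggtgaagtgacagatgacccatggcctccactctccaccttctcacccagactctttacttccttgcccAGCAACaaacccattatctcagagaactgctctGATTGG
H2-Ob, chr17:34238655-34238902, plus strand: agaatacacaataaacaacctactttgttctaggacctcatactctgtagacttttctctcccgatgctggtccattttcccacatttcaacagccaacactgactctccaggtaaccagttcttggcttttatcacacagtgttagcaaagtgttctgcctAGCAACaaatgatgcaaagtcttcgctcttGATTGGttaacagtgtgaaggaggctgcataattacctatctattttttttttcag
H2-Eb1, chr17:34305617-34305866, plus strand: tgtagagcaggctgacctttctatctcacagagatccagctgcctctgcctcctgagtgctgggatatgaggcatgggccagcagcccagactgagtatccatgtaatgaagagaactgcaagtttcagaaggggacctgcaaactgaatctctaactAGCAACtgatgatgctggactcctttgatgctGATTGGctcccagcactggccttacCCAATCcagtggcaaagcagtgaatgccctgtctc
H2-Aa, chr17:34287824-34288073, minus strand: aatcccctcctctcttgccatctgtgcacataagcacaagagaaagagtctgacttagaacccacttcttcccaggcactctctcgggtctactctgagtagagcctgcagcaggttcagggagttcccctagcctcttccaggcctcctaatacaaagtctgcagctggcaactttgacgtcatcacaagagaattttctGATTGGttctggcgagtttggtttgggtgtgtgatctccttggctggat
H2-DMb2, chr17:34144999-34145235, plus strand: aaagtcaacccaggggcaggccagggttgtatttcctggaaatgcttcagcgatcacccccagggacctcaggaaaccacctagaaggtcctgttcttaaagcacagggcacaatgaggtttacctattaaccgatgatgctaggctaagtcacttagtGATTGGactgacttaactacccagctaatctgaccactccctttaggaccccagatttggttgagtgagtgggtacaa
H2-DMa, chr17:34122635-34122821, plus strand: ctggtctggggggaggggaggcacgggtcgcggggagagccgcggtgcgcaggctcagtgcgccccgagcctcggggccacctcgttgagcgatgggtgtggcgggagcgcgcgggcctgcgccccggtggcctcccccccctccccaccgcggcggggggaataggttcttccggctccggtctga

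AGNAAC followed by GATTGG on the gene's strand, with 20 to 40 bases between their first letters, occurred in 60 of 32851 RefSeq promoters (0.183%). H2-Oa, H2-Ob, H2-Eb1 and H2-DMb1 were among the 60. The spacing was 33 bases in H2-Oa (−77 and −44), 30 in H2-Ob (−88 and −58), 32 in H2-Eb1 (−92 and −60) and 33 in H2-DMb1 (−95 and −62). GATTGG alone was in 16.1% of all promoters and AGNAAC in 48.1%. H2-Aa held GATTGG at −49 and H2-DMb2 at −91, each with no AGNAAC in the window. The spacing was examined after the sequences had been seen, and a match is a description of letters, not of binding.

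Most of these promoters were poor in CpG. The 300 bases held 0 CpG in H2-Eb1, 2 in H2-Ob and 3 in each of H2-Oa, H2-Aa, H2-DMb1 and H2-DMb2, against a median of 7 over all promoters. The H2-DMa promoter printed above was the exception, with 29 CpG, more than 87.1% of promoters, and it lies beside the divergent start of Brd2. KDM2A peaks covered all 300 bases of that promoter in 6 of 6 libraries, with folds of 3.96, 4.19 and 4.17 in WT and 3.61, 3.36 and 4.15 in KO. The fold is the authors' ratio of a peak over its local control. It belongs to the whole peak, not to the 300 bases, and the peaks over this promoter were 7836 to 17526 bp wide. The CpG-free H2-Eb1 promoter was also fully covered in all 6 libraries, with folds of 2.82, 3.30 and 3.08 in WT and 2.90, 2.74 and 3.16 in KO. The H2-DMb1 promoter was fully covered in all 6 libraries as well, with folds from 2.46 to 2.95. The other promoters were covered less regularly. The second H2-DMa promoter, also with 0 CpG, lay under a KDM2A peak in KO replicate 1 only, and the H2-Ob promoter was at 0% in 3 of 6 libraries. H2-Aa, H2-Oa and H2-DMb2 were each at 0% in 1 KO library. The highest fold of the 8 promoters lay over the CpG-rich one in every library except KO replicate 1, where the H2-DMb2 promoter had a fold of 3.89.

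Facts of the whole lists bear on every result below. The number of KDM2A peaks ran from 23372 to 29105 in WT and from 15387 to 21705 in KO, covering 0.770 to 1.11% and 0.433 to 0.715% of the genome. H3K36me2 lists covered 4.17 to 5.32% of the genome in WT, and 3.63, 1.59 and 1.44% in KO replicates 1, 2 and 3. The male KO H3K36me2 library stood apart, with 106720 peaks against 37447 in replicate 2. Read depths are unknown, so a shorter list cannot be told apart from a shallower library. KDM2A peaks lay at the start sites of 5 or 6 of 6 B cell markers in every library, of 0 or 1 of 5 T cell markers, of 0 to 2 of 5 myeloid markers and of 1 or 2 of 4 erythroid markers. In H3K36me2 lists, 1 to 4 of the T cell and 2 to 4 of the myeloid markers had a promoter peak. Peaks are not expression, so these counts do not measure purity.

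KDM2A occupied most members broadly. In every list KDM2A peaks lay within 2 kb of a start site of 8 of the 10 genes, while 26.4% of all genes had such a peak in all 6 libraries. The exceptions were Ciita, without one in WT replicate 3, and H2-Ob, without one in KO replicate 1. The peaks were not confined to the start sites. On average over WT libraries they covered at least 50% of the gene body, from first to last base, in 7 members (3.3% of all genes), and over KO libraries in 5 (1.61%). The mean body coverage over the 10 genes was 70.7, 67.3 and 61.4% in the WT libraries and 44.1, 40.2 and 57.6% in the KO libraries. These means were 9.83 to 12.1 times the mean of all genes in WT and 11.1 to 12.5 times in KO. The ratio is a description with no test.

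Cd74, the invariant chain gene (ENSMUSG00000024610.15, chr18:60803848-60812652, GRCm38), was covered over 100% of its body by a single KDM2A peak in all 6 libraries. The peak began at −949 to −205 relative to the first base of the gene and ran past its end. Its width measured 15211, 16351 and 14410 bp in WT and 12357, 12054 and 11595 bp in KO, ranking from 7 to 34 in its list. Every KO peak was narrower than every WT peak. The fold of the peak measured 3.58, 3.64 and 3.46 in WT and 3.14, 3.11 and 3.16 in KO, again with no overlap between genotypes. After centring each library on its median over the genes with a peak in all 6 libraries, the difference of the log2 fold was −0.12 (SE 0.11), which did not pass the limma test across 5786 genes (adjusted p = 0.949). On this centred scale Cd74 was among 299 of the 5786 genes that were lower in every KO library. The share of genes without overlap in width or in uncentred fold was not counted.

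Ciita (ENSMUSG00000022504.10, chr16:10480059-10528418), the coactivator gene, had the lowest mean KDM2A coverage of the 10 in WT, whereas H2-Ob had the lowest in KO. Its body coverage measured 26.4, 16.4 and 20.5% in WT and 12.5, 5.76 and 19.9% in KO, in 4 to 13 separate peaks. Its promoter window had 26.8, 19.8 and 0% in WT and 11.4, 12.8 and 20.7% in KO. The genotypes overlapped in both measures. Still, 91.3% of all genes had a lower WT mean of body coverage than Ciita.

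The other members lie within 224335 bp of chromosome 17 (chr17:34092340-34316674), interleaved with Brd2, Psmb9, Tap1, Psmb8 and Tap2. KDM2A peaks covered 64.3, 58.2 and 57.0% of this cluster in WT and 35.9, 29.2 and 47.3% in KO. Between the class II genes the coverage measured 62.3, 55.2 and 55.1% in WT and 33.4, 22.6 and 45.1% in KO, so KDM2A peaks also lay outside the class II genes. Some peaks spanned 2 members, such as H2-DMb1 with H2-DMb2 in all WT libraries and KO replicate 3, and those values are not independent.

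**Figure D1:**
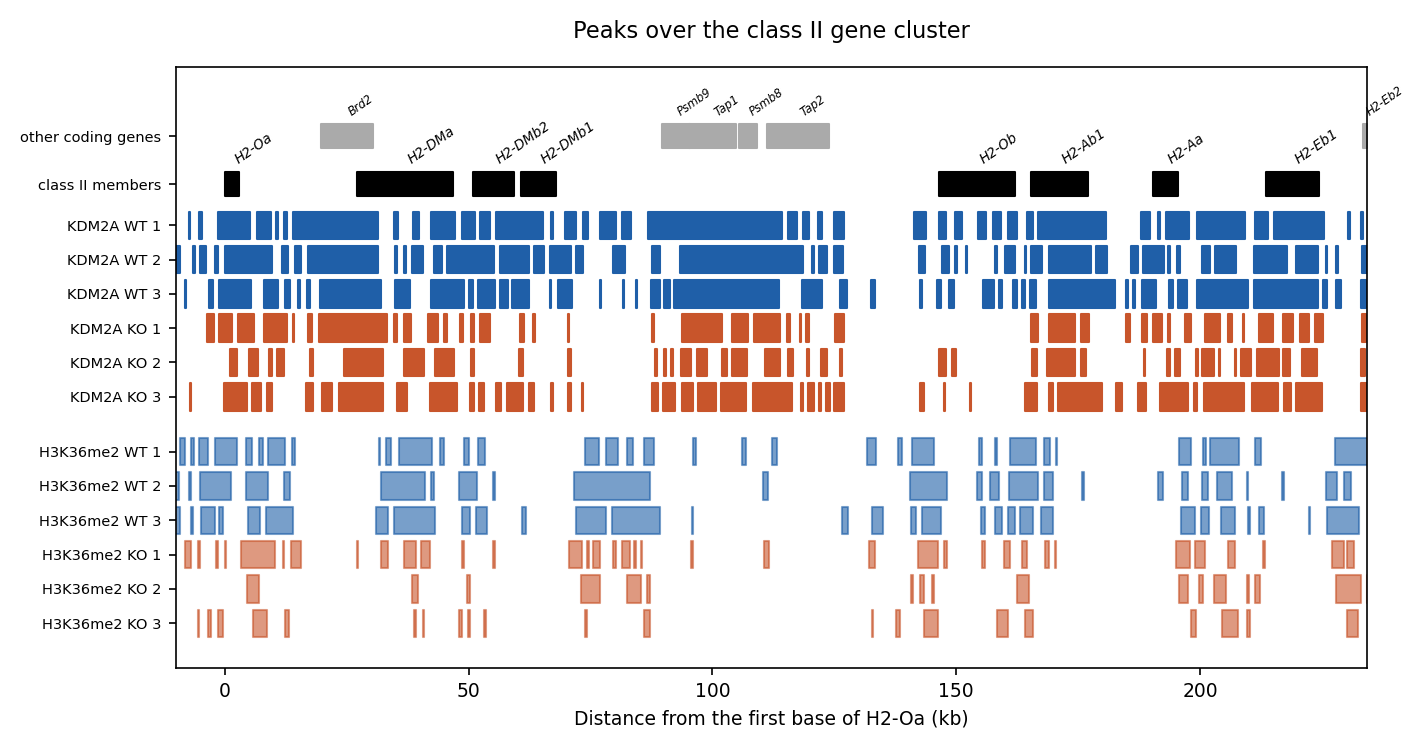
Peaks over the chromosome 17 class II cluster, by distance in kb from the first base of H2-Oa. Rows are single libraries, blue for WT and orange for KO, bars are peaks, and black and grey boxes are the class II members and other coding genes. KDM2A peaks cover 57.0 to 64.3% of the cluster in WT and 29.2 to 47.3% in KO, and H3K36me2 peaks cover 25.0 to 29.6% in WT and 8.92 to 18.8% in KO, in part inside KDM2A peaks.

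The first comparison asked whether KDM2A over the class II genes differed between genotypes. Coverage was lower in every KO library than in every WT library for 5 of the 10 gene bodies, against 16.6% of all genes tested. These were H2-Ab1, H2-Eb1, H2-DMb1, H2-DMb2 and H2-Ob. H2-DMa and H2-Aa overlapped between genotypes and had KO means slightly above WT, and Cd74 was fully covered throughout. The median difference, KO minus WT, was −19.9 percentage points over the members and −2.01 over all genes.

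In percentage points, the H2-DM beta genes had the largest differences of the members. H2-DMb2 (ENSMUSG00000037548.15, chr17:34143307-34151555) had 72.1, 84.6 and 62.4% of its body covered by KDM2A in WT and 24.9, 0.643 and 44.0% in KO. Every KO value lay below every WT value, and the difference was −49.8 points (SE 14.1). H2-DMb1 (ENSMUSG00000079547.4, chr17:34153072-34160230) had 67.4, 68.1 and 29.3% in WT and 13.4, 5.87 and 23.2% in KO, a difference of −40.8 points (SE 13.95) also without overlap. In KO replicate 2 a single peak touched each gene, of 896 bp over the first base of H2-DMb1 and of 500 bp over the first base of H2-DMb2. In KO replicate 3 a peak of 3202 bp still joined the end of H2-DMb2 to the start of H2-DMb1. The 2 genes are paralogs, and how reads that fit both were placed was not tested. H2-DMa (ENSMUSG00000037649.10, chr17:34119541-34139101), which encodes the alpha chain, had 54.5, 52.4 and 63.6% in WT and 56.6, 66.1 and 61.3% in KO, with overlap. The difference between the alpha and beta genes of H2-DM was not tested.

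The genes of H2-O both had less KDM2A in KO on average. H2-Ob (ENSMUSG00000041538.16, chr17:34238903-34254414) had 46.9, 28.4 and 31.5% in WT and 0, 12.1 and 4.04% in KO, a difference of −30.2 points (SE 7.55). No KDM2A peak touched H2-Ob in KO replicate 1, and 5 touched it in each WT library. H2-Oa (ENSMUSG00000024334.9, chr17:34092340-34095234) had 100, 98.9 and 100% in WT and 61.7, 52.2 and 100% in KO. KO replicate 3 was as fully covered as WT, so the H2-Oa groups overlapped.

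Of the I-A chain genes and H2-Eb1, H2-Ab1 (ENSMUSG00000073421.6, chr17:34257689-34269419) had 90.6, 88.0 and 76.9% in WT and 70.0, 68.3 and 69.9% in KO, a difference of −15.8 points (SE 4.34). H2-Eb1 (ENSMUSG00000060586.11, chr17:34305867-34316674) had 90.1, 82.4 and 99.5% in WT and 57.1, 63.7 and 79.2% in KO, a difference of −24.0 points (SE 7.09). Neither gene overlapped between genotypes. H2-Aa (ENSMUSG00000036594.15, chr17:34282744-34287823) had 59.4, 54.0 and 30.6% in WT and 44.8, 27.8 and 74.1% in KO, a spread within each genotype wider than the difference of 0.899 points. In WT the order of mean body coverage was Cd74, H2-Oa, H2-Eb1, H2-Ab1, H2-DMb2, H2-DMa, H2-DMb1, H2-Aa, H2-Ob and Ciita. Each neighbouring pair in this order overlapped between its libraries, except H2-Ob above Ciita.

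No gene passed the test. For KDM2A body coverage limma called 0 of 9514 genes at an adjusted p of 0.05 (0%), with 867 at an unadjusted p under 0.05. All 10 members were tested, and 5 of them had an unadjusted p under 0.05, the same 5 without overlap. Their adjusted p-values lay between 0.447 and 0.514. The longer WT lists enter these differences. With each value divided by the percent of the genome its library's peaks cover, the difference (in points per percent of genome) turned positive for H2-Ab1 (37.9), H2-Eb1 (23.9) and H2-Oa (17.6), was positive for Cd74 (79.8), H2-DMa (54.4) and H2-Aa (33.4), and stayed negative for H2-DMb2 (−44.2), H2-DMb1 (−36.5), H2-Ob (−27.2) and Ciita (−0.59). This scaling moved the median over all genes from −2.01 to 0.18.

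**Figure D2:**
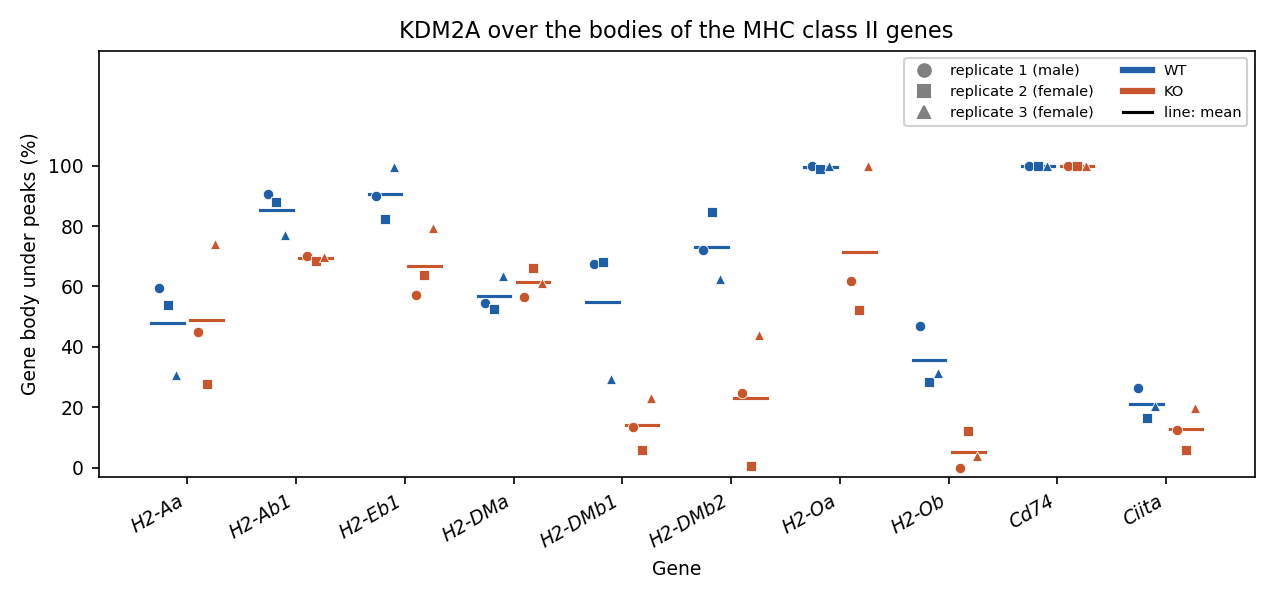
Percent of each gene body under KDM2A peaks, by gene. Points are single libraries (3 WT in blue, 3 KO in orange) and lines are means. Cd74 stays at 100% in all libraries, while H2-DMb1, H2-DMb2, H2-Ob, H2-Ab1 and H2-Eb1 have all KO points below all WT points.

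In promoter windows, taken as 2 kb on each side of every annotated start site, 4 genes were without overlap. All 10 members were tested, and the beta chain genes H2-DMb2, H2-DMb1, H2-Eb1 and H2-Ab1 had every KO library below every WT library, against 12.5% of genes tested. H2-DMb2 windows were covered to 73.2, 100 and 67.7% in WT and 41.0, 8.38 and 29.6% in KO. H2-DMb1 windows were covered to 83.3, 72.5 and 44.7% in WT and 14.7, 11.5 and 42.4% in KO. The beta chain gene H2-Ob overlapped, at 43.7, 16.6 and 36.8% in WT and 0, 17.1 and 3.26% in KO. The H2-DMa window, which also holds a Brd2 start site, was covered to 83.9, 72.3 and 88.4% in WT and 79.6, 84.3 and 93.6% in KO, with overlap. The median difference was −16.5 points over the members and −2.87 over all genes. With limma 0 of 12288 genes were called (0%), with 942 at an unadjusted p under 0.05, and the members had adjusted p-values from 0.479 to 0.984. In points per percent of genome covered, the difference was positive for H2-DMa (72.1), Cd74 (41.7), H2-Eb1 (36.9) and H2-Ab1 (33.5) and negative for H2-DMb2 (−43.1) and H2-DMb1 (−34.9).

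The uncentred fold of KDM2A peaks overlapped between genotypes at H2-DMb1, H2-DMb2, H2-Ab1 and H2-Eb1, whose coverage did not, but not at H2-Ob. The highest promoter fold of H2-DMb2 measured 3.85, 3.23 and 3.09 in WT and 4.11, 2.86 and 3.67 in KO. That of H2-DMb1 measured 2.74, 2.95 and 2.92 in WT and 2.58, 2.78 and 3.23 in KO. H2-Ob had 3.08, 3.06 and 3.04 in WT, no peak in KO replicate 1 and 2.802 and 2.72 in the others. The 8 members with a peak in all 6 libraries had centred log2 differences with a median of 0.02, and the median over all genes was 0.00. On that centred scale Cd74 was lower and H2-Eb1 higher in every KO library, and the other 6 overlapped. Of all 5786 genes on that scale, 299 were lower and 301 higher in every KO library than in every WT library. Limma called 0 of 5786 genes (0%), with 299 at an unadjusted p under 0.05, and adjusted p-values of the members were at least 0.949. H2-DMa had the highest WT mean, 4.11 ± 0.13, followed by Cd74 with 3.56 ± 0.093 (SD, n = 3 each).

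**Figure D3:**
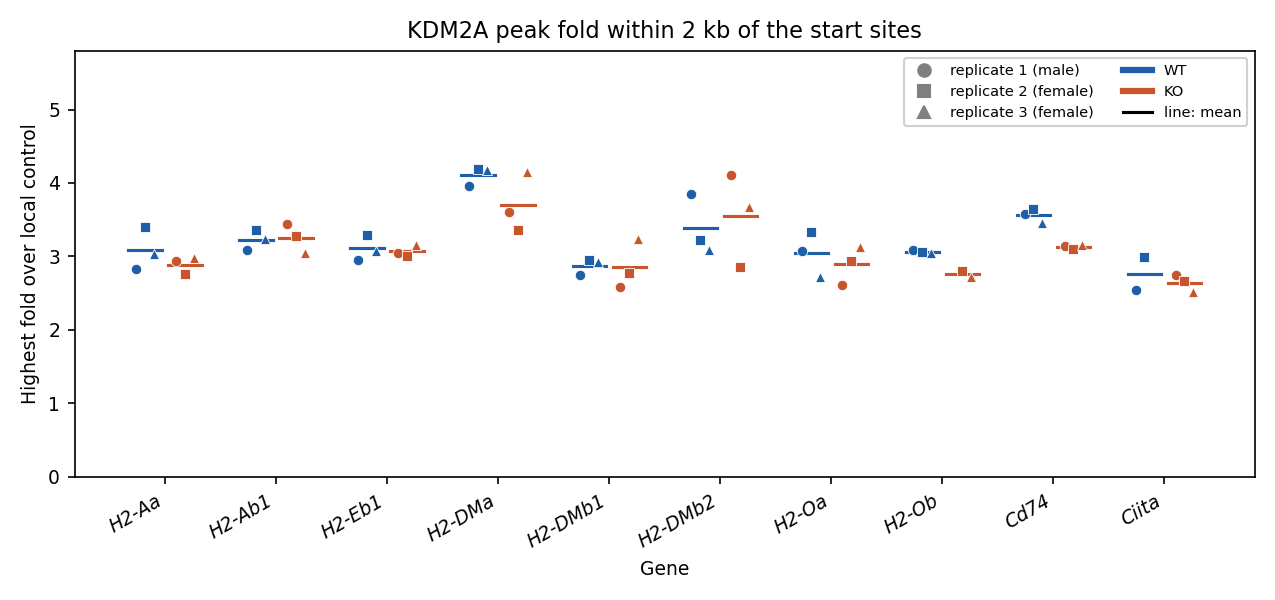
Highest fold over local control of any KDM2A peak within 2 kb of a start site, by gene. Points are libraries (WT blue, KO orange) and lines are means over libraries with a peak. The folds lie between 2.52 and 4.19, and these uncentred values overlap between genotypes for all genes but Cd74, with KO at 3.11 to 3.16 and WT at 3.46 to 3.64, and H2-Ob.

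The next comparison asked where H3K36me2 lay at these genes and whether it differed in KO. In WT a peak touched the gene body of 7 of 10 members in at least 2 of 3 libraries (42.1% of all genes), and in KO of 5 (25.9% of all genes). The mark was denser before the genes than over them. Averaged over the members, H3K36me2 covered 47.1, 51.8 and 49.1% of the 5 kb upstream of the gene in WT against 19.5, 21.2 and 16.2% of the body. In KO it covered 34.6, 25.2 and 23.7% upstream against 8.65, 1.202 and 2.93% of the body. Upstream coverage therefore exceeded body coverage in 6 of 6 libraries. The 5 kb downstream of the genes held 18.5, 30.5 and 24.5% in WT and 21.4, 14.1 and 9.71% in KO. That was also above the body in every library except WT replicate 1. No value over all genes is given for these flanks. Averaged in the same way, KDM2A covered less upstream than over the body, with 54.6, 48.8 and 47.5% upstream against 70.7, 67.3 and 61.4% over the body in WT, and 24.4, 20.02 and 36.6% against 44.1, 40.2 and 57.6% in KO.

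Not every gene followed these means. For KDM2A the upstream mean exceeded the body mean in both genotypes at H2-DMa, H2-DMb1 and H2-DMb2, at 100, 83.4 and 83.2% against 56.8, 55.0 and 73.02% in WT. Some flanks hold part of another member, so their values are not independent of it. The 5 kb before H2-DMb1 hold the end of H2-DMb2, those before H2-DMb2 the end of H2-DMa, and those before H2-Ab1 the end of H2-Ob. For H3K36me2, Ciita had H3K36me2 over 100, 73.0 and 100% of the 5 kb before it in WT and 77.5, 72.6 and 24.7% in KO, with 15.9, 10.5 and 12.9% and 10.7, 5.61 and 3.69% of its body. H2-Ab1 had 85.4, 89.7 and 74.0% of the upstream 5 kb covered in WT and 35.3, 52.5 and 31.1% in KO. H2-DMa was arranged the other way, with 0% upstream in each WT library and a peak of 6892 to 9004 bp inside the gene in each WT library. The 5 kb before H2-DMa and the first part of its body also belong to Brd2 (chr17:34112023-34122634), whose body had no H3K36me2 peak in WT, so the values of the 2 genes are not independent there.

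Over the body of Cd74 no H3K36me2 peak was called in 6 of 6 libraries, which does not show that the mark is absent. Such peaks covered 46.5, 63.6 and 44.3% of the 5 kb upstream of Cd74 in WT and 42.3, 13.7 and 42.9% in KO. The H3K36me2 peak nearest to the gene ended at −1977 to −632 relative to its first base.

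**Figure D4:**
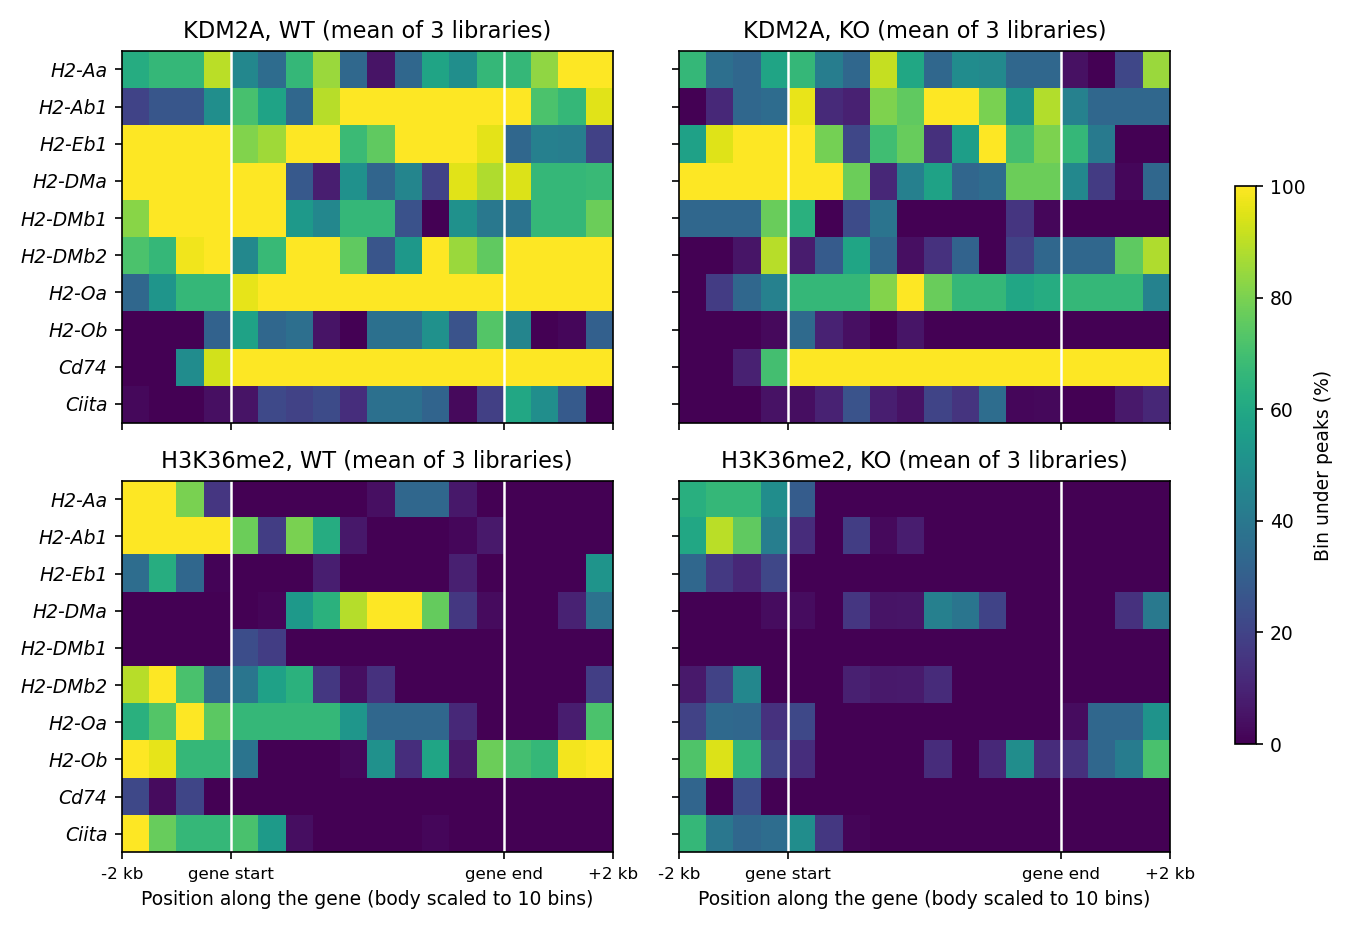
Coverage along the 10 genes, from 2 kb before the start to 2 kb past the end, with the body scaled to 10 bins. Colour is the mean percent of a bin under peaks over 3 libraries, for KDM2A (top) and H3K36me2 (bottom) in WT (left) and KO (right). Averaged over genes in WT, H3K36me2 falls from 61.0% in the first bin to 8.70% in the last body bin and is at 27.9% in the last downstream bin. KDM2A in WT is at 70.5% in the first body bin and 75.8% in the last.

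For gene bodies H3K36me2 was below every WT library in every KO library for 3 members, H2-DMa, H2-Ab1 and H2-DMb2, against 28.7% of all genes tested, so 3 of the 8 members tested is close to that background. H2-DMa had 46.0, 49.1 and 55.9% of its body covered in WT and 30.1, 6.41 and 3.28% in KO, a difference of −37.1 points (SE 10.5). H2-Ab1 had 20.3, 30.4 and 24.9% in WT and 8.69, 0 and 3.82% in KO, a difference of −21.0 points (SE 5.31). H2-DMb2 had 16.3, 13.4 and 28.6% in WT and 5.84, 0 and 4.76% in KO, a difference of −15.9 points (SE 5.24). Without the male KO library, which stood apart in peak number, these differences were −45.5, −23.3 and −17.05 points. The KO libraries kept cover 1.59 and 1.44% of the genome, against 3.63% in the male one. With this omission the median difference over all genes was −7.01 points.

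H2-Oa varied most between WT libraries, with 83.4, 45.7 and 0% in WT and 6.53, 0 and 0% in KO. H2-Ob had 12.9, 36.8 and 24.6% in WT and 16.1, 0 and 13.7% in KO, with overlap. H2-Aa, H2-DMb1 and H2-Eb1 had no body peak in most libraries, and H2-Eb1 and Cd74 had too little coverage to enter the fit. Limma called 0 of 9804 genes (0%), with 1899 at an unadjusted p under 0.05. The 8 members tested had a median difference of −15.4 points against −5.24 over all genes, with adjusted p-values from 0.253 to 0.568. Divided by genome share, the differences were −8.93 for H2-Oa, −5.43 for H2-DMa, −3.43 for H2-Ab1 and −2.32 for H2-DMb2. They were −0.798 for H2-DMb1, −0.652 for H2-Aa, −0.247 for H2-Ob and 0.257 for Ciita. The median over all genes on this scale was −0.473.

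**Figure D5:**
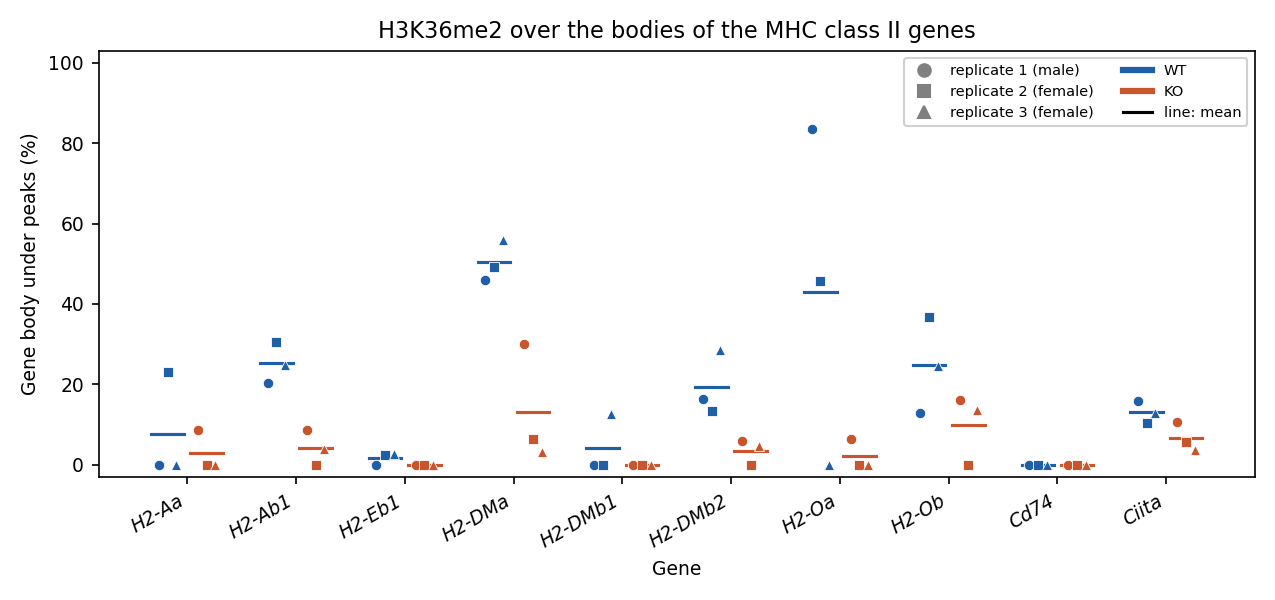
Percent of each gene body under H3K36me2 peaks, by gene. Points are single libraries (WT blue, KO orange, circles for the male replicate 1) and lines are means. H2-DMa has the highest WT mean, 50.3%, Cd74 stays at 0% throughout, and the male KO library lies above the other KO libraries for H2-DMa.

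In promoter windows every KO library had less H3K36me2 than every WT library for H2-DMb2 and H2-Ab1, 2 of 10 members tested, against 21.3% of genes tested, which is close to that background. H2-DMb2 windows were covered to 39.6, 44.6 and 62.8% in WT and 2.13, 11.3 and 11.9% in KO. H2-Ab1 windows were covered to 27.6, 36.03 and 26.1% in WT and 10.8, 12.6 and 13.7% in KO. The largest mean difference was that of H2-Oa, −52.0 points (SE 19.1), with overlap, at 98.8, 81.4 and 17.7% in WT and 16.6, 0 and 25.3% in KO. H2-Oa and H2-DMb2 were the 2 members with an unadjusted p under 0.05. H2-Aa overlapped, at 42.9, 30.1 and 36.6% in WT and 60.3, 41.6 and 0% in KO. Limma called 0 of 11424 genes (0%), with 1579 at an unadjusted p under 0.05, and the members had adjusted p-values from 0.290 to 0.923.

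Within the bodies of all members pooled, H3K36me2 lay over 13.6, 17.9 and 16.6% of the bases under KDM2A peaks in WT and over 23.5, 22.3 and 23.01% of the other bases. Among all 14465 coding genes of 2895 to 48360 bp, the length range of the members, the values in WT stood the other way round, with 13.9, 12.3 and 13.4% of KDM2A bases and 5.06, 6.22 and 6.14% of other bases. In KO the member values were 9.16, 2.804 and 1.49% under KDM2A and 12.5, 2.90 and 5.75% elsewhere. Over the genes of that length range the KO values were 8.43, 1.22 and 1.73% under KDM2A and 4.65, 1.28 and 1.22% elsewhere, so in KO replicate 2 they did not stand the other way round. The pooled WT contrast did not hold for each gene. H2-DMa and Ciita, the longest members, stood as the pool did in each WT library, and H2-Ob stood against it. In WT, KDM2A covered 46.9, 28.4 and 31.5% of the H2-Ob body, H3K36me2 12.9, 36.8 and 24.6%, and both together 12.9, 15.7 and 11.0%. Bases of one gene are not independent, so no test was made.

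Of the other genes of the class II pathway, few were covered broadly by KDM2A. The list held 18 genes, of which 16 were protein-coding, and their median WT body coverage was 3.27% against 0.654% over all genes. In 1 of them the WT mean reached 50%, Ifi30, a lysosomal thiol reductase that unfolds antigen, with 100% in each WT library and 81.5, 34.3 and 100% in KO. Rfxank, a subunit of RFX, had 27.6, 14.9 and 35.4% in WT and 12.4, 6.65 and 45.3% in KO. The costimulatory gene Cd80 had 8.45, 2.63 and 2.24% in WT, with H3K36me2 over 22.5, 17.97 and 29.4% of its body. H2-Ea-ps, the disrupted alpha chain gene of I-E, had H3K36me2 over 30.1, 94.2 and 90.5% of its body in WT and 84.1, 41.5 and 12.1% in KO. H2-Eb2, a further beta chain gene, had KDM2A over 16.8, 9.75 and 17.04% of its body in WT. Of 12 coding genes of the list tested for KDM2A body coverage, 0 were called in either direction and 2 had an unadjusted p under 0.05. Among these 12 genes, 0 lay without overlap lower in KO, against 16.6% of all genes tested.

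Class I presentation genes and the neighbours of the cluster also had broad KDM2A peaks. The median WT body coverage of KDM2A was 65.3% over 14 class I genes, 65.3% over 8 neighbours and 64.9% over the class II members. The WT mean reached 50% in 9 of the class I genes and in 5 of the neighbours, which include class I genes of the cluster. H2-K1 and H2-D1, the class I heavy chain genes, and Calr, a chaperone of class I assembly, were covered over 100% of their bodies in all 6 libraries, as Cd74 was. Tap1, a peptide transporter gene inside the class II cluster, had 100% in each WT library and 79.9, 46.5 and 79.2% in KO, and Psmb8, an immunoproteasome subunit beside it, had 100% in each WT library and 64.5, 45.0 and 61.9% in KO. Of 13 class I genes tested for KDM2A body coverage, 0 were called. Among them 4 were without overlap lower in KO, against 16.6% of all genes tested. For H3K36me2 the median WT body coverage was 16.3% over the class II members and 0.162% over the class I genes. Neighbours of the cluster differed among themselves. Brd2 had 100% KDM2A in each WT library, whereas Btnl2 had 22.7, 5.34 and 23.9% with H3K36me2 over 71.8, 83.3 and 81.2% of its body in WT, and Col11a2 had H3K36me2 over 45.2, 40.9 and 27.1%.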

How the data were processed

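Peak lists of 12 libraries were analysed, 3 per genotype for KDM2A and for H3K36me2. The 6 input libraries were not examined separately. The authors aligned reads with BWA to GRCm38 and called broad peaks with MACS2 in nf-core/chipseq, library by library without pooling. In the deposited lists the fold of a peak is a ratio over its local control, with no scaling across libraries. Significance is deposited on the −log10 scale (p-value and q-value), and the deposited score was not used. The lists give no read totals, so depth is unknown.

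Genes and start sites came from GENCODE M21. Coverage was the percent of bases under merged peaks, within 2 kb of any start site or from the first to the last base of a gene, and an overlap of 1 bp counted as a peak. KO was compared with WT by limma 3.58.1 in R 4.3.3 (lmFit, eBayes with trend, two-sided), over all protein-coding genes with a mean of at least 1%, and p-values were Benjamini-Hochberg adjusted with 0.05 as the threshold. Folds were compared as log2 values, for genes with a peak in all 6 libraries, after centring each library on its median over those genes (deposited fold values). The KDM2A body coverage fit was added after seeing the data. An exact permutation test of 3 against 3 libraries cannot go below p = 0.1 and was not used. All 10 members are named, and in 3 other lists the genes highest in promoter KDM2A or body H3K36me2. Python 3.11.15 was used for coverage and sequences. The members and lists were chosen with earlier results of these data known.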

Additional observations from a re-analysis of the deposited data

Results flagged for a closer look

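The male pair (replicate 1) and the female libraries were compared for the KO minus WT difference of 40 coverage values, 4 per gene. For 3 of them the male difference had the opposite sign to every pairing of female libraries. This difference between sexes was not tested, each sex being represented by 1 or 2 libraries per genotype. H3K36me2 body coverage of H2-Ob was 3.20 points higher in KO in the male pair, and between −36.8 and −10.8 in the female pairings. H3K36me2 promoter coverage of H2-Ob was 10.6 points higher in the male pair and between −47.5 and −14.5 in the female pairings. H3K36me2 promoter coverage of Cd74 was −9.19 points in the male pair and between 4.31 and 8.77 in the female pairings. The male KO H3K36me2 library also held 106720 peaks, against 37447 and 45180 in the female KO libraries, and the part of this in the 3 values was not tested.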

How the results depend on the processing

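Of the alternatives run for single members, 112 of 130 kept the direction for KDM2A promoter coverage (1 other, H2-DMa at the 5 prime end only, gave a difference of 0), 80 of 84 for H3K36me2 body coverage and 91 of 99 for KDM2A body coverage, and 0 were called by limma. Adjusted p-values ran from 0.346 to 1, from 0.0676 to 0.980 and from 0.108 to 1, respectively. Over all genes, H3K36me2 promoter coverage gave 6 calls with stricter peaks and 1 with the 5 prime end only, against 0. KDM2A body coverage gave 0 to 8 calls with a library left out, the 8 when KO replicate 1 was omitted and 4 when KO replicate 2 was. The cause was not tested. Per percent of genome covered, the KDM2A promoter difference was 24.4 for H2-Aa, 33.5 for H2-Ab1, 36.9 for H2-Eb1, 6.70 for H2-Oa, 41.7 for Cd74 and 10.5 for Ciita, against the unscaled direction, and 72.1 for H2-DMa, in it. On the same scale the KDM2A body difference was 37.9 for H2-Ab1, 23.9 for H2-Eb1 and 17.6 for H2-Oa, and the H3K36me2 body difference of Ciita was 0.257. This scaling moved the median of all genes to 1.82 for KDM2A promoters. With stricter peaks (−log10 q of at least 2) the KDM2A promoter difference of H2-DMa was −6.72, and −2.60 with a 1 kb window. Its KDM2A body difference was −7.95 and that of H2-Aa −13.9 with stricter peaks. Ciita had KDM2A promoter differences of 1.46 with equal numbers of peaks and 0.258 at the 5 prime end, and a body difference of 0.0386 with equal numbers of peaks. H3K36me2 over the H2-Aa body was 2.90 with stricter peaks and with equal numbers. With 1 library left out in turn, the KDM2A promoter difference ran from −34.0 to 6.72 for H2-Aa, −0.365 to 7.69 for H2-DMa and −8.36 to 5.06 for Ciita. The body difference of H2-Aa ran from −11.7 to 11.5 for KDM2A and from −8.69 to 2.90 for H3K36me2. A replicate block gave 0 calls in all 5 fits, with 838, 308, 1477, 1119 and 608 genes at an unadjusted p under 0.05, and same-numbered libraries did not deviate together.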
